A study of Bos taurus with 2 samples.

Results

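Genes for proteins that the yolk sac and the liver release into blood plasma were followed through single cells of bovine embryos. They are AFP, TTR, APOA1, APOA2, APOB, RBP4, TF, SERPINA1, FGB and AHSG, a set chosen by name, and all 10 were found among the 17846 genes of the count table. The cells came from flushed bovine (Bos taurus) embryos of day 25 that were chimeras carrying bovine embryonic stem cells (bESC). Both samples are of that 1 kind and are called replicate 1 and replicate 2, so no treatment, genotype or time was compared, and every comparison is between kinds of cells inside the same 2 suspensions. The labels do not say whether the replicates came from separate embryos. The p-values measure how evenly differences between cell classes repeat in these 2 suspensions, a spread that may be technical. The embryos were digested with papain and DNase, strained, sorted through a gate that the sources used here do not give, and profiled with 10x Genomics droplets (3′ chemistry v3.1). The values are counts of unique molecular identifiers (UMIs), 1 for each captured transcript.

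In early mammalian embryos the yolk sac endoderm makes plasma proteins before the liver does, and hepatoblasts take over much of that work as the liver forms. The usual set of both tissues includes AFP, the main plasma protein of the early embryo; transferrin (TF), the iron carrier; transthyretin (TTR), which carries thyroid hormone and binds the retinol carrier RBP4; the apolipoproteins APOA1 and APOA2 of high-density lipoprotein and APOB of the larger lipid particles; the protease inhibitor SERPINA1 (alpha-1-antitrypsin); the fibrinogen chain FGB; and the mineral-binding protein AHSG (fetuin-A). Hepatocyte factors such as HNF4A and the forkhead protein FOXA2 are known regulators of many of them. TTR is also a classical product of the choroid plexus of the brain, and APOA1 and RBP4 are made by more tissues than the others.

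Cells with 500 or more detected genes were kept, 1939 of 1973 in replicate 1 and 2420 of 2464 in replicate 2, with medians of 4987 and 5704 UMIs per cell. No deposited cell had over 3999 detected genes, so cells with more are not analysed here. The libraries shared 6 cell barcodes, 0 of them among the 11 cells with 3 or more of the genes at 2 or more UMIs. No doublet caller was run. Levels are given as CPM, the UMIs of a gene in the summed cells scaled to a fixed library total. These 3′ UMI counts count transcript ends and are not divided by transcript length.

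The 10 genes did not behave as 1 group. APOA1 and RBP4 were abundant in a small population marked by collagen VI and keratin 19; AFP, APOA2, APOB, SERPINA1, FGB and AHSG were nearly confined to 3 cells of replicate 2; and TTR lay mostly in other cells, some of them with neural markers. All 10 together made up 11665 UMIs in replicate 1 and 27770 in replicate 2, or 0.104% and 0.180% of all UMIs. APOA1 and RBP4 supplied 98.7% and 89.7% of these.

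APOA1 had 7645 UMIs in replicate 1 (685 CPM) and 17154 in replicate 2 (1114 CPM), and RBP4 had 3870 (347 CPM) and 7760 (504 CPM). The ratio of APOA1 to RBP4 UMIs was 1.98 and 2.21. TTR followed with 113 and 605 UMIs. TF had 19 and 75. The other 6 genes had between 1 and 6 UMIs each in replicate 1, against 218 for AFP, 181 for APOA2, 15 for APOB, 829 for SERPINA1, 25 for FGB and 908 for AHSG in replicate 2. At least 1 UMI of APOA1 was present in 26.9% and 35.2% of cells, and of RBP4 in 19.8% and 24.8%. Most of these cells held few copies, as the counts in neural cells below show.

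To place the genes, cells were sorted by 2 marker sets that do not include them. A cell was collagen VI-positive with 3 or more UMIs of COL6A1, COL6A2 and COL6A3 summed, and KRT19-positive with 2 or more UMIs of KRT19, a keratin of simple epithelia, mesothelium and trophoblast. Double-positive cells numbered 33 and 67 (1.70% and 2.77% of cells), KRT19-positive cells without collagen VI 123 and 233, and double-negative cells 1776 and 2115. Collagen VI without KRT19 was seen in 7 and 5 cells, too few for a test. Double-positive cells were deeper than double-negative cells, with medians of 12193 and 12771 against 4788 and 5278 UMIs. Ribosomal protein genes took 25.3% and 26.9% of their UMIs against 3.75% and 4.44%. The GFP row of the table stood at 55.6 and 56.5 CPM in them against 1664 and 1887 CPM. A repeat among cells of 10% or more ribosomal counts is given below; the part of depth was not tested.

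APOA1, the main protein of high-density lipoprotein, reached 17887 CPM in the double-positive cells of replicate 1 and 17590 CPM in those of replicate 2 (17738 ± 210, SD, n = 2). Its levels were 239 and 496 CPM in KRT19-positive cells without collagen VI, and 98.3 and 145 CPM in double-negative cells. The replicates of the double-positive cells did not overlap with those of the other 2 classes. On edgeR's TMM scale the double-positive cells were 8.16 higher than double-negative cells in log2 (SE 0.27, edgeR adjusted p = 2.57e-10), and 6.23 higher than the KRT19-positive cells without collagen VI (edgeR adjusted p = 3.25e-09). APOA1 had more UMIs than any other gene of the table in the double-positive cells of both replicates.

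RBP4, which carries retinol in plasma, followed the same order. It stood at 9284 and 8128 CPM in double-positive cells (8706 ± 817, SD, n = 2), at 88.6 and 245 CPM in KRT19-positive cells without collagen VI, and at 44.2 and 51.3 CPM in double-negative cells. The difference from double-negative cells was 8.47 in log2 (SE 0.66, edgeR adjusted p = 0.00423) and that from KRT19-positive cells without collagen VI 6.33 (edgeR adjusted p = 0.00962). By UMIs RBP4 ranked 4 and 7 among all genes of these cells. The double-positive cells held 84.2% and 83.5% of all APOA1 UMIs and 86.4% and 85.3% of all RBP4 UMIs.

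**Figure D1:**
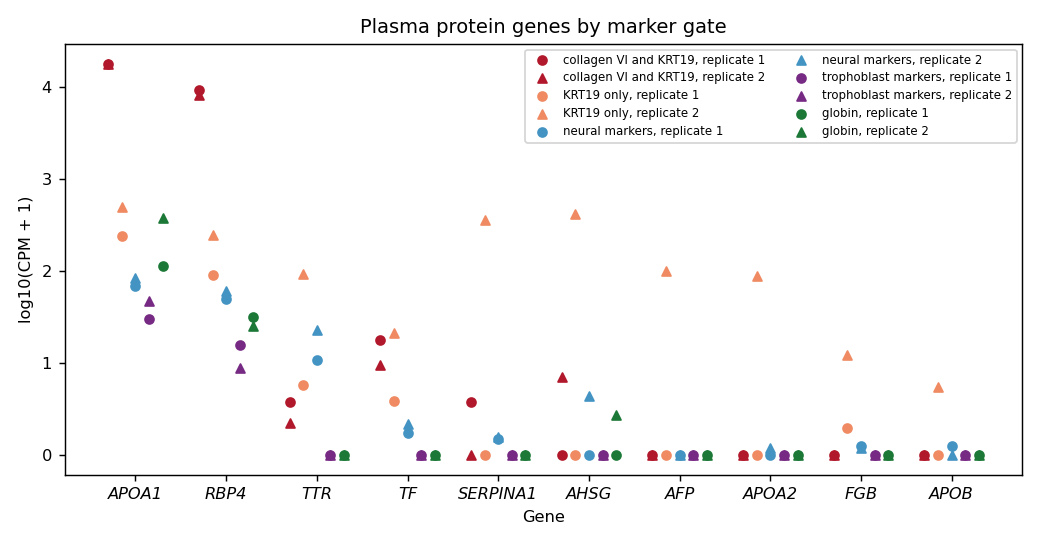
Level of each gene (log10 of CPM + 1) in summed cells of 5 marker gates, with replicate 1 as circles and replicate 2 as triangles. Among the gates plotted, APOA1 and RBP4 are by far highest in collagen VI and KRT19 cells of both replicates. The raised SERPINA1, AHSG, AFP and APOA2 points of replicate 2 among KRT19-positive cells come almost wholly from 1 cell. The globin gate is shown without collagen VI- or KRT19-positive cells. A gate of endothelial genes (6 and 14 cells, 5 and 11 of them collagen VI-positive) is not plotted and had 20087 and 14449 CPM of APOA1.

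Single cells showed the same pairing. In double-positive cells, APOA1 ran from 0 through a median of 209 to 432 UMIs in replicate 1, and from 0 through 208 to 578 in replicate 2. RBP4 ran from 0 through 82 to 305 and from 3 through 80 to 479. The median cell gave 1.67% of its UMIs to APOA1 in both replicates, and at most 3.11% and 3.55%. APOA1 outnumbered RBP4 in 29 of 33 and 61 of 67 cells. Across these cells the log levels of both genes rose together, with Pearson's r of 0.792 (n = 33) and 0.768 (n = 67) and Spearman's rho of 0.531 and 0.723, a description of cells that share a library. Cells with fewer than 10 UMIs of both genes numbered 3 and 4.

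Read from the genes to the markers, the overlap was as close. Cells with 20 or more UMIs of both APOA1 and RBP4 numbered 24 and 55. All 24 and all 55 were KRT19-positive, and 95.8% (exact 95% interval 78.9 to 99.9%) and 94.5% (84.9 to 98.9%) were double-positive. With 20 or more APOA1 UMIs alone there were 36 and 75 cells, 83.3% and 80.0% of them double-positive. Exact binomial intervals here and below cover counting error only.

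**Figure D2:**
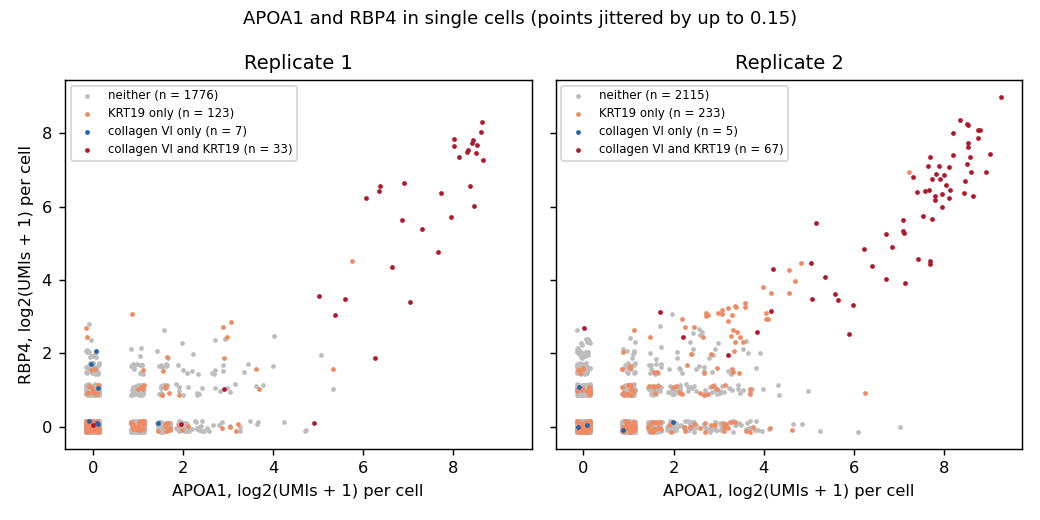
APOA1 (horizontal) against RBP4 (vertical) in every kept cell, both as log2(UMIs + 1), 1 panel per replicate, coloured by marker class. The high end of both axes holds double-positive cells, and the mass near the origin holds the double-negative cells, with 0 to a few UMIs of either gene.

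The remaining members were low or absent there. TTR had 1 UMI in the double-positive cells of each replicate, 2.00 ± 1.10 CPM (SD, n = 2), although TTR and RBP4 proteins circulate as a complex. TF had 6 and 7 UMIs, 12.6 ± 5.71 CPM. AFP, APOA2, APOB and FGB had 0 UMIs, SERPINA1 had 1 and 0, and AHSG had 0 and 5. A count of 0 allows a UMI in up to 9.09% of the 33 cells and 4.48% of the 67 cells, and does not limit the share of cells that express the gene below capture.

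Of the 10 genes, 5 had enough counts to be tested (TF, APOA1, SERPINA1, TTR and RBP4), and SERPINA1 passed through 2 cells described below. Against double-negative cells, 3 of the 5 were higher in double-positive cells and 0 lower at an edgeR adjusted p under 0.05. Among all 11692 genes tested, 57.4% were called, 28.4% higher and 29% lower, so a call by itself says little here and the sizes matter more. TF was the third, 3.62 higher in log2 (SE 0.79, edgeR adjusted p = 5.87e-04) (6 and 7 UMIs against 10 and 27). It passed the count filter through double-positive cells (16.7 and 8.60 CPM) and replicate 2 of the KRT19-positive class without collagen VI (20.2 CPM). In double-negative cells TF was at 1.03 and 2.16 CPM, so it was tested only because of the classes where it was high. On the log2(CPM + 1) scale of 1 replicate, which understates low genes and has no test, TF was 3.76 higher in replicate 1 and 2.36 in replicate 2. TTR had a difference of -3.18 with an edgeR adjusted p of 0.130, and of -0.90 in replicate 1 and -3.25 in replicate 2 on the single-replicate scale. Without the 3 cells of replicate 2 that hold 5 or more of the genes, its difference was -2.95. The members' own counts chose those 3 cells, so values of members without them are a description with no p-value. These log2 values rest on TMM scaling. With library totals alone the median of all genes moved by 0.93 in log2, APOA1 was 7.24 and RBP4 7.54 higher, and the genes called higher made up 20.8% of calls in place of 49.5%.

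KRT19-positive cells without collagen VI had 3 members higher and 0 lower than double-negative cells, against 24.2% of all genes higher and 20% lower. APOA1 was 1.93 higher in log2 (SE 0.21, edgeR adjusted p = 2.87e-05). Among cells with 10% or more ribosomal counts its difference was 1.00 and did not pass (edgeR adjusted p = 0.317), whereas double-positive cells were still 7.28 above double-negative ones (edgeR adjusted p = 0.00951). TF, which passed the filter through KRT19-positive classes, was 3.24 higher (edgeR adjusted p = 9.05e-05), or 2.21 without the 3 cells. In replicate 1 alone, with 3 TF UMIs in the class, the difference was 1.09. SERPINA1 was called higher by 5.68 (edgeR adjusted p = 0.0233), and 728 of the 729 UMIs behind that value lay in 1 cell. RBP4 was 2.13 higher with an edgeR adjusted p of 0.0696, and 1.86 higher without the 3 cells. TTR turned from 1.30 (edgeR adjusted p = 0.0919) to -1.68 without them, and was -0.70 in replicate 1 alone. Between double-positive and KRT19-positive cells without collagen VI, TTR was called lower with a difference of -4.48 (edgeR adjusted p = 0.0449), where 21.8% of genes were lower and 21.4% higher. Without the 3 cells that difference was -1.27. The KRT19-positive class was mixed, with 28 of 123 and 55 of 233 cells carrying neural markers and 5 and 7 passing a gate of trophoblast genes.

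The other genes of these pathways were read from the same fit of double-positive against double-negative cells. Of 34 further genes on a plasma protein list, which also holds a proteoglycan and a haemoglobin chaperone, 8 were tested. Of these 7 were higher and 0 lower (median log2 difference 5.50, against -0.11 over all genes). Here and in the lists below a gene could pass the count filter through a single class, so counts of genes higher or lower are partly set by the filter. C3, for example, stood at 8.33 and 19.7 CPM in double-positive against 0.823 and 0.399 CPM in double-negative cells. A2M, a broad protease inhibitor, was 9.86 higher (1843 ± 199 against 3.84 ± 1.35 CPM, SD, n = 2), GPC3, a heparan sulfate proteoglycan, 5.86, complement C3 5.59 and protein S (PROS1) 5.54. AHSP, a haemoglobin chaperone on that list, had a difference of -3.11 with an edgeR adjusted p of 0.0752. Of 20 lipoprotein genes, 14 were tested, 7 higher and 4 lower (median 0.11), with library totals 6 higher and 7 lower. APOE, which carries lipid between cells, rose by 7.10 (6451 ± 650 against 89.5 ± 1.31 CPM, SD, n = 2), and PLTP, a phospholipid transfer protein, by 4.60. APOC2 had 9 against 2 UMIs, a CPM ratio of 85.3 (95% counting interval 17.6 to 811). ABCG1, a cholesterol exporter, had 0 UMIs and was at least 13.5-fold lower, taking 3 counts over the group as the floor. MTTP, which loads lipid onto APOB, was lower at -2.77.

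The endoderm factors went the other way for the most part. Of 20 factors listed in the counts, 8 were tested, 6 lower and 2 higher (median -3.62, or -2.90 with genes at 0 set to their bound). GATA6, shared by endoderm and several mesoderm tissues, was 8.38 higher, with 175 and 179 CPM, and TBX3 was 3.30 higher. FOXA2 was lower at -3.75, PROX1 had 2 UMIs (26.3-fold lower in CPM, 95% counting interval 7.27 to 218), ONECUT1 had 0 UMIs and was at least 9.13-fold lower, and HNF4G had 0 and was at least 6.07-fold lower. Genes of uptake and iron handling were mostly higher, 9 of 13 tested against 1 lower (median 2.21), or 8 and 2 with library totals. Among them AMN, which anchors the cubilin receptor, was 5.78 higher, the endocytic adaptor DAB2 4.88, the lysosomal protease CTSZ 4.70, and the transferrin receptor TFRC was lower at -2.21. Of 5 retinoid genes tested 3 were higher and 2 lower (median 1.27). DHRS3, which reduces retinal, was 6.07 higher. The retinoic acid-binding protein CRABP1 was lower at -3.20, and RDH10, which oxidises retinol, had 2 UMIs (9.55-fold lower in CPM, 95% counting interval 2.63 to 79.2).

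All 18 genes of the secretory pathway were called higher (median 1.61), among them the coat protein SEC24D by 3.11, the translocon-associated SSR3 by 3.08, the retrieval receptor KDELR2 by 2.83 and the translocon subunit SEC61G by 2.72. With library totals 11 of the 18 were called higher, 0 lower, and the median was 0.67.

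Markers of other tissues showed what else these APOA1- and RBP4-rich cells carried. Of 18 mesenchyme genes tested 14 were higher and 2 lower (median 5.44), led by COL1A1 at 9.79, COL1A2 at 9.03, the matrix proteoglycan LUM at 8.63 and COL3A1 at 8.47. Of 11 genes of extraembryonic mesoderm 9 were higher and 1 lower (median 5.32), with BMP4 at 7.61, HAND1 at 7.10 and ANXA1 at 6.85, or 8 higher and 1 lower with library totals. Of 13 mesothelium genes 6 were tested, 4 higher and 1 lower: KRT8 by 6.77, MSLN by 6.08, PODXL by 2.63 and KRT18 by 2.54 against GPM6A at -3.58. Among 10 epithelial genes 3 were higher and 3 lower, and EPCAM, CDH1 and CLDN4 had 0 UMIs in the double-positive cells. KRT8 and KRT18 are on both lists and count as higher in each. All 6 neural markers were lower. Of the 5 trophoblast genes 2 were lower and 0 higher. Of 5 endothelial genes only 2 had enough counts to be tested, KDR (7.01) and TEK (2.30), and both were higher. KDR stood at 83.3 and 109 CPM in double-positive and 1.65 and 1.20 CPM in double-negative cells, so it passed the filter through the class where it was high. The label of yolk sac and liver proteins was not met in these cells: they held most of the APOA1 and RBP4, while AFP, APOA2, APOB and FGB had 0 UMIs. They are called here by their marker genes.

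**Figure D3:**
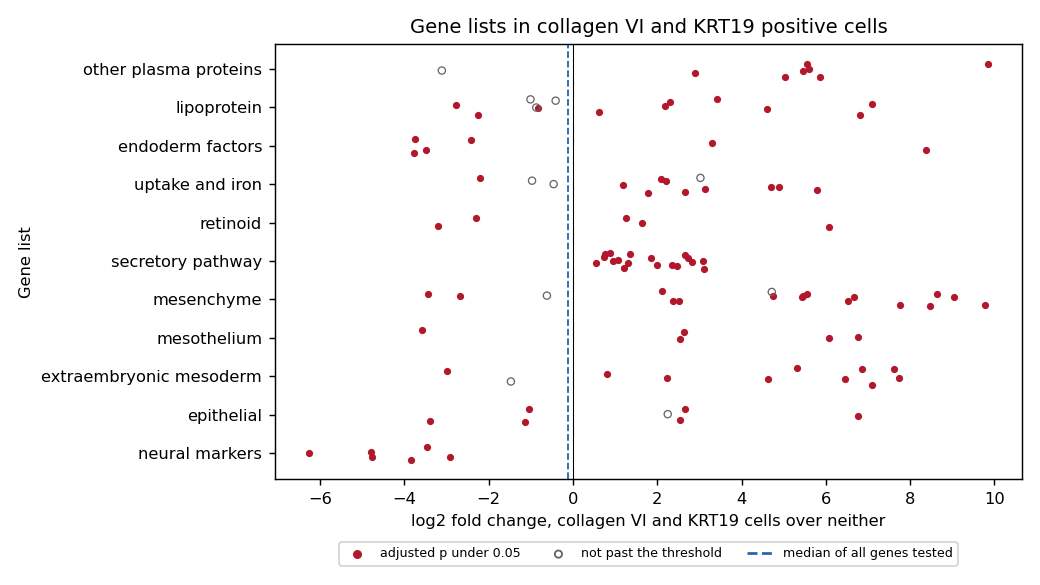
Log2 fold change of double-positive over double-negative cells (TMM-scaled edgeR fit) for 110 of 117 tested entries of 11 gene lists, filled where the adjusted p is under 0.05. Entries with no UMI in double-positive cells, 7 in all, are left out; the mesenchyme, extraembryonic mesoderm and secretory lists lie mostly right of the median of all genes (dashed), and the endoderm factors and neural markers mostly left.

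Outside the 10 members, the genes whose level across all cells was most like that of the members summed were KLK1, a kallikrein protease (r = 0.609 over 1939 cells and 0.651 over 2420), the water channel AQP1 (0.592 and 0.608), AEBP1 (0.581 and 0.615), COL1A1 (0.573 and 0.644) and PITX1 (0.547 and 0.604). COL6A1, COL3A1, A2M, COL1A2 and CCN4 completed the first 10. APOA1 and RBP4 themselves had r of 0.548 and 0.668 with each other, against 0.0861 and 0.0859 for APOA1 with TTR and 0.0411 and 0.0518 for RBP4 with TTR. These r describe sparse counts of cells that share a library and depth.

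Few cells carried several of the proteins at once. With a threshold of 2 UMIs, 3 of 1939 cells of replicate 1 and 8 of 2420 of replicate 2 had 3 or more of the 10 genes. Just under that line, 75 and 172 cells had exactly 2 of them, and APOA1 with RBP4 was the pair in 63 (84%) and 147 (85.5%). The 3 and 8 cells held 1.88% and 10.3% of the members' UMIs. Since the members chose these cells, their levels are a description. With so few cells, no fit of other genes was made. In each replicate 1 of them was double-positive. It had 146 APOA1, 44 RBP4 and 2 TF UMIs in replicate 1 and 131, 54 and 2 in replicate 2. A further 6 cells, 2 of replicate 1 and 4 of replicate 2, reached the rule with TTR at 3 to 9, APOA1 at 3 to 10 and RBP4 at 2 to 4 UMIs, and held 14 to 34 GFP UMIs.

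The other 3 cells, all of replicate 2, had a wide plasma protein set, with 10, 8 and 5 members at 2 or more UMIs. The first had all 10: 829 AHSG, 728 SERPINA1, 202 AFP, 175 APOA2, 171 TTR, 154 APOA1, 136 RBP4, 29 TF, 23 FGB and 9 APOB UMIs. Together they were 19.1% of its 12863 UMIs. It had 13 KRT19 and 14 KRT8 UMIs, 0 of collagen VI and 0 of GFP. The second, of 4348 UMIs, held 16 AHSG, 15 SERPINA1, 12 AFP, 6 APOB, 5 RBP4, 4 TF, 2 TTR and 2 APOA1, with 3 UMIs each of the endocytic receptors CUBN and LRP2. The third, of 2300 UMIs, held 79 SERPINA1, 7 AHSG, 4 APOA1, 4 TF and 2 APOA2, with 3 UMIs of EPCAM. The first fell in the KRT19-positive class without collagen VI, and the other 2 among the double-negative cells.

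These 3 cells made up 0.127% of the UMIs of replicate 2, yet they held 100% of its APOB, 99.2% of its SERPINA1, 98.2% of its AFP, 97.8% of its APOA2, 96% of its FGB and 93.8% of its AHSG UMIs. For TF the share was 49.3%, for TTR 28.8%, for RBP4 1.82% and for APOA1 0.933%. Other genes of the plasma protein list were in the same cells, with 19 of 34 present at 1 or more UMI, 13 of them in at least 2 of the cells. FETUB, the fetuin next to AHSG, had 201 UMIs there (94.8% of its replicate 2 total), the acute-phase protein ORM1 506 (99.2%), and the other fibrinogen chains FGG 48 (98.0%) and FGA 13 (92.9%). Plasminogen (PLG) had 10 UMIs (90.9%). Of the lipoprotein genes, APOM had 57 UMIs, APOC2 54 and APOE 52. The hepatocyte factor HNF4A had 4, against 3 in all other cells of both replicates. ALB, the albumin of the later liver, had 0.

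**Figure D4:**
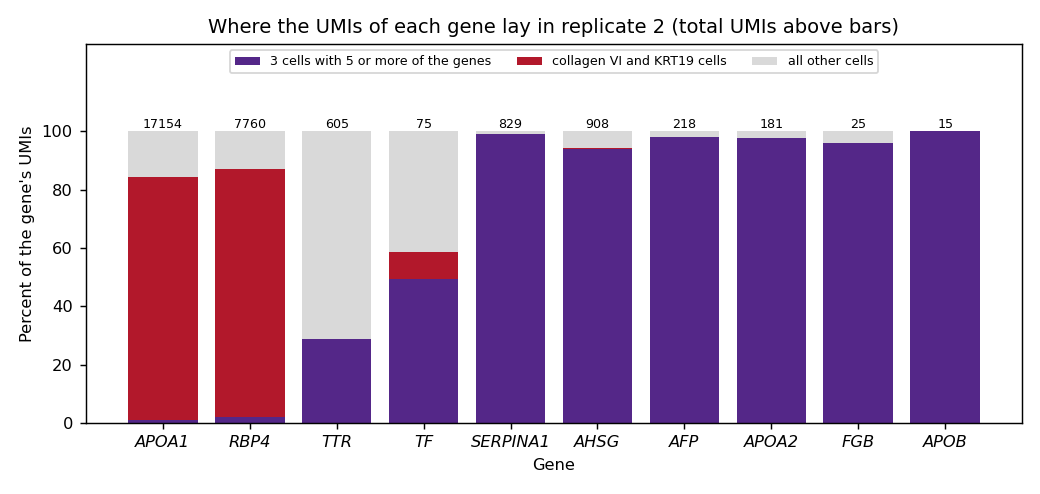
Share of each gene's UMIs in replicate 2 that lay in the 3 cells with 5 or more of the genes (purple), in double-positive cells (red) and in all other cells (grey), with total UMIs above the bars. SERPINA1, AHSG, AFP, APOA2, FGB and APOB are nearly all purple, APOA1 and RBP4 mostly red, and TTR mostly grey.

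TTR marked other cells. Leaving out the 3 cells, 25 and 43 cells had 2 or more TTR UMIs. None of them was double-positive, and 10 and 15 passed a gate of 2 or more of the neural genes SOX2, PAX6, SOX1, DCX, STMN2 and ELAVL4 at 2 or more UMIs. The highest 3 cells of replicate 1 had 12, 7 and 6 TTR UMIs and those of replicate 2 had 157, 37 and 19. The cell with 12 had 22 UMIs of RSPO2, a secreted Wnt enhancer, those with 7 and 6 had 2 and 0, and those with 157, 37 and 19 had 11, 18 and 19. None of these 6 had AFP or SERPINA1. Over all cells, the 3 wide cells included, the genes most like TTR were FOLR1 (r = 0.321 and 0.238), RSPO2 (0.184 and 0.211), LIM2, CALML4 and NFIA, weak values in sparse counts. FOLR1 had a UMI in 1 of the 25 and 0 of the 43 TTR cells.

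The levels of the TTR cells are set here beside those of the neural-gated cells outside them and of all cells outside them, without a test since TTR chose the cells. Most TTR cells did not pass the neural gate themselves. RSPO2 stood at 118 and 310 CPM in TTR cells, against 15.0 and 34.0 CPM in neural-gated and 23.8 and 23.7 CPM in all other cells. It was present in 4 of 25 and 10 of 43 TTR cells, and without the cell highest in RSPO2 its level was 26.3 and 229 CPM. CALML4 stood at 135 and 237 CPM, against 24.5 and 43.3 CPM in neural-gated and 43.6 and 63.8 CPM in all other cells. The transcription factor NFIA stood at 672 and 1067 CPM, against 189 and 278 CPM and 351 and 381 CPM. FOXA2 was at 330 and 227 CPM, against 130 and 125 CPM and 188 and 197 CPM. Of the neural genes compared, SOX2 was at 393 and 404 CPM, against 303 and 318 CPM in neural-gated and 241 and 249 CPM in all other cells. PAX6, a neural progenitor gene, was at 21.1 and 17.7 CPM, against 221 and 203 CPM and 132 and 108 CPM. Both genes are part of the neural gate, so their neural-gated levels are raised by the choice of cells. GFP was at 4584 and 4537 CPM, against 1800 and 2057 CPM and 1565 and 1715 CPM. Depth and ribosomal share moved with TTR as well, with medians of 10952 and 9621 against 7321 and 7798 UMIs in neural-gated cells and ribosomal shares of 25.1% and 21.3% against 5.78% and 10.3%. Their part was not tested.

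Low counts of APOA1 and RBP4 were spread over cells of every kind. Neural cells (553 and 649, negative for collagen VI and KRT19, median 7393 and 7910 UMIs) held 67.8 and 82.1 CPM of APOA1 (74.9 ± 10.1, SD, n = 2) and 49.3 and 60.0 CPM of RBP4 (54.6 ± 7.60). At least 1 APOA1 UMI was in 26.6% and 30.0% of them, and 1 RBP4 UMI in 24.8% and 29.4%. Thinned to 2000 UMIs per cell, which left out 3 and 12 neural cells, the shares were 8.73% and 10.0% for APOA1 and 8.36% and 10.4% for RBP4, against 97.0% for APOA1 in double-positive cells of both replicates. The thinned mean was 0.107 and 0.152 APOA1 UMIs per neural cell. Trophoblast-gated cells (12 in each replicate) had 4 and 6 APOA1 and 2 and 1 RBP4 UMIs.

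Levels elsewhere were then set, gene by gene, against those in double-positive cells. In neural cells APOA1 was at 0.379% and 0.466% of its double-positive level and RBP4 at 0.531% and 0.738%. The 10 non-members most like them were lower in both replicates, between 0% (CCN4) and 0.292% (AEBP1) with a median of 0.176% in replicate 1, and between 0% (CCN4) and 0.341% (COL3A1) with a median of 0.179% in replicate 2. One of the 10, COL6A1, is used to exclude cells from the neural gate. All 10 were picked by their correlation with the members over these same cells, which favours genes that are low outside double-positive cells. Their lower percentages are therefore a description and not an independent comparison. In globin-rich cells that were negative for both markers (34 and 41), APOA1 stood at 0.620% and 2.13% of that level and RBP4 at 0.334% and 0.297%. A single cell with 121 APOA1 UMIs gave much of the replicate 2 value, which was 1.02% without it. The like genes had medians of 0.110% and 0.0386% in globin-rich cells, with PITX1 up to 1.09% in replicate 1 and COL6A1 up to 0.546% in replicate 2. Whether any of these low counts come from free RNA was not tested.

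**Figure D5:**
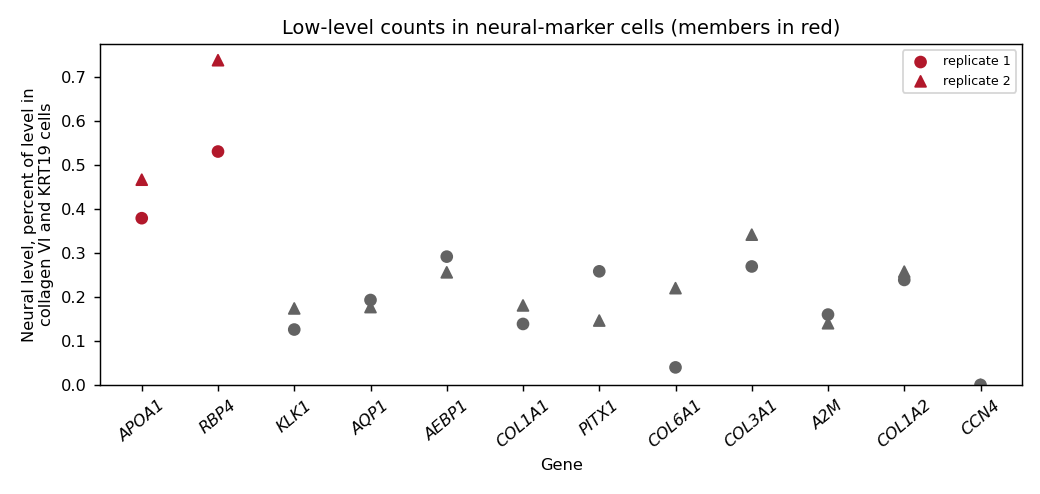
Level in neural-marker cells as a percent of the level in collagen VI and KRT19 cells, for APOA1 and RBP4 (red) and the 10 genes most like the members (grey), with replicate 1 as circles and replicate 2 as triangles. APOA1 and RBP4 lie between 0.379% and 0.738%, and the like genes at or below 0.341%. The like genes were picked from these same cells, so the comparison is not independent.

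AHSG and AFP had the largest ratios between the replicates among the members, with intervals that overlapped. AFP had 1 and 218 UMIs, a ratio of 158 (95% counting interval 28.1 to 6269), and APOA2 a ratio of 65.6 (17.9 to 546). AHSG had 4 UMIs in replicate 1 (0.358 CPM) and 908 in replicate 2 (59.0 CPM), a ratio of 165 (95% counting interval 64.0 to 605). With 1 suspension on each side there is no replicate check. The 3 wide cells held 852 of the 908. Without them 56 UMIs remained against 4, a ratio of 10.2 (3.75 to 38.6). Those 56 were spread over 53 of 2417 cells, 2.19% (exact 95% interval 1.65 to 2.86%), against 4 of 1939 cells, 0.206% (0.0562 to 0.527%), in replicate 1. At most 2 UMIs were in any of these cells, 17 of the 56 in neural cells and 5 in double-positive ones.

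SERPINA1, nearly as abundant in the 3 cells, was not spread in this way. Its ratio between replicates was 100 over all cells (6 and 829 UMIs, 95% counting interval 45.8 to 274) and 0.847 (0.244 to 3.05) without the 3 cells. AHSG and SERPINA1 stood at 852 and 822 UMIs in the 3 cells, at 56 and 7 in the rest of replicate 2, and at 4 and 6 in replicate 1. The other members below differed less once the 3 cells were left out. TTR was 2.77-fold higher in replicate 2 (2.25 to 3.44), and 1.76-fold (1.41 to 2.21) without the cell of 157 TTR UMIs as well. TF was 1.45-fold higher (0.816 to 2.67), APOA1 1.61-fold and RBP4 1.43-fold. Within double-positive cells APOA1 and RBP4 were close between replicates, at ratios of 0.983 and 0.876, where replicate 2 also had the larger share of such cells. Among 4879 genes at 50 CPM or more in either replicate, 6 (0.123%) differed by over 4-fold: AHSG and SERPINA1 were higher in replicate 2, and PRP1, PRP4, SRGN and LOC617406 higher in replicate 1.

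The order of genes in RefSeq's ARS-UCD2.0 assembly, another build than the bosTau9 of the count table and used here for names and order only, places several members beside relatives. FGB lies beside FGA and FGG, and all 3 chains were in the 3 wide cells. AHSG lies beside FETUB, which had 2 and 212 UMIs. AFP lies beside ALB, which had 0 and 8 UMIs and none in the 3 cells. APOA1 lies beside the apolipoprotein genes APOC3 and APOA4, which had 1 and 2 and 1 and 3 UMIs in the 2 replicates. RBP4 lies beside PDE6C, a cone phosphodiesterase gene, which stood at 125 and 111 CPM in double-positive cells against 1.34 and 0.958 CPM in double-negative cells. No source used here says whether the counting used strand, so reads of neighbours that overlap could not be told apart.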

How the data were processed

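The deposited table holds UMI counts per gene and cell, not normalized. Per the submitters' processing notes, the authors used Cell Ranger, R 4.1.2, Seurat 4.3.0 and the bosTau9 build; annotation and filters: not given in the sources used here. Cells with 500 or more detected genes were kept, 11162815 and 15402255 UMIs in replicates 1 and 2. Gates are given with the results.

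Counts were summed per replicate and marker class, 6 sums with 10 or more cells each, and fitted with edgeR 4.0.16 in R 4.3.3 (TMM, filterByExpr, robust quasi-likelihood test, replicate as a block, Benjamini-Hochberg adjustment over all 11692 genes tested, threshold 0.05). COL6A1, COL6A2, COL6A3 and KRT19 define the classes and were not tested. Each gene had 2 residual degrees of freedom and a median of 20.72 lent by other genes. The SE given with a log2 difference is its absolute value divided by the square root of the test's F statistic, not a spread of replicates. The replicate number pairs sums because they come from 1 suspension; replicate differences of the classes correlated at 0.0185, -0.0261 and 0.133 across 11696 genes. The fit was also run on simulated counts in which few genes differed between classes. That setting is unlike these data, so the run does not vouch for the calls made here. A planned fit of plasma protein cells was not made, since 3 and 8 cells were under the minimum of 10. Named genes are the 10 members, up to 4 called genes per list by size (others named were chosen after their values were seen), and the 10 genes with the highest lower-of-2 Pearson r to the members summed, on log(1 + 10000 × UMIs / total). Members and lists were chosen with earlier results of these data known. Intervals of CPM ratios are exact counting intervals. No sequences are shown. Some genes of the lists are not reported here by name.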

Additional observations from a re-analysis of the deposited data

How the results depend on the processing

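The count of members higher in double-positive than in double-negative cells was 3 in all 10 refits run. The count lower was 0, and 1 without a filter on low counts, with looser gates (collagen VI at 2 and KRT19 at 1 UMI), without the 3 wide cells, with library totals or with DESeq2 1.42.0. For KRT19-positive cells without collagen VI the count higher was 3. It was 2 in cells of 10% or more ribosomal counts, 4 with looser gates and 9 without the filter. The count lower was 0, and 1 without the 3 wide cells. Without the filter 5586 genes were called in either direction. In replicate 2 of that class, 1 cell held 202 of 202 AFP, 175 of 176 APOA2, 829 of 832 AHSG and 23 of 23 FGB UMIs. Calls of these members without the filter rest mainly on that cell, here and against double-positive cells. Double-positive cells had 1 member lower than KRT19-positive cells without collagen VI. That count was 0 with RLE size factors, stricter gates (5 and 4 UMIs) or without the 3 wide cells. It was 2 with library totals and 5 without the filter. Without the replicate block that count was also 0, TTR had an edgeR adjusted p of 0.412, and 6791, 5372 and 5003 genes were called against 6708, 5168 and 5050 with it; RBP4 in KRT19-positive cells without collagen VI passed (2.22, edgeR adjusted p = 0.00408) and SERPINA1 did not (5.80, edgeR adjusted p = 0.109). The genes called between that class and double-negative cells fell from 5168 to 1760 in cells of 10% or more ribosomal counts and to 2655 with DESeq2. These differences changed sign in a refit or when a replicate was left out (no test): SERPINA1 in double-positive against double-negative cells with DESeq2 (1.83) or without replicate 2 (1.80), SERPINA1 in KRT19-positive cells (5.65 without replicate 1 and -0.45 without replicate 2), SERPINA1 between double-positive and KRT19-positive cells without replicate 2 (2.25), TTR in KRT19-positive cells without the 3 wide cells (-1.68) or replicate 2 (-0.70), and TF between double-positive and KRT19-positive cells with stricter gates (-0.26), library totals (-0.18) or without replicate 1 (-0.62). TTR between those classes was -0.20 without replicate 2. The cause was not tested. Of 608 refits of single named genes 570 kept their direction and side of the threshold, and 239 of 260 list counts stayed within 1.5 times. Of 124 single-gene values with a replicate left out, 71 lay within 1 SD of the fitted difference. That SD came from the same 2 single-replicate values, which are on another scale than the fit, so this count does not measure stability. The mean share of cells with 3 or more members was 0.243%, 5.73% with 2 or more, 0.0620% with 4 or more, 0.0714% after thinning to 2000 UMIs, and between 0.155% and 0.331% when either replicate was left out. The mean share of such cells that were double-positive, 22.9%, was 0% at 3 UMIs per member. The members' UMIs in them, 6.08%, became 89.2% with 2 or more members. APOA1 in neural cells, 74.9 CPM, was 90.6 CPM with markers at 1 UMI. The AHSG ratio of 165 became 10.2 without the 3 wide cells. The planned refits of other genes in plasma protein cells were not run, since 3 and 8 cells are too few. Leaving out a replicate gives differences with no test. The removal of the 3 wide cells or of the cell of 157 TTR UMIs, the library totals and the comparison with double-positive levels were chosen after seeing the data. The members' own counts chose the 3 wide cells, so counts of members called without them are a description. AFP, APOA2, APOB, FGB, SERPINA1 and AHSG had between 1 and 6 UMIs each in replicate 1, too few to place them.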
